A study of Mus musculus with 4 samples.

Results

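The complement system was examined in liver RNA of mice on a choline-deficient, ethionine-supplemented (CDE) diet. The members were 31 complement genes, chosen by symbol, of which 30 were among the 13903 genes of the expression table and Cfd, the gene of complement factor D, was not analysed here. The measurement was bulk mRNA-seq of total RNA from liver, and all mice were OGT-floxed on the C57BL/6J background and were fed the CDE diet, a model of liver injury. The OGT-KO label stands for AAV8-TBG-CRE, in which the hepatocyte-active TBG promoter drives Cre, and the control label for the same vector with eGFP (AAV8-TBG-eGFP). Tissue was collected either straight from the diet or 7 days after it, called no recovery and 7 days here. Each of the 4 conditions had 1 library that pooled RNA of 3 mice. Hence no value has a replicate error and no comparison between conditions has a p-value. Ages, sex and the length of the diet are not given in the sources used here, and no library came from mice without the diet.

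Complement is a cascade of plasma proteins that marks microbes and damaged cells for removal. The classical pathway starts when C1q binds antibody or other targets, the lectin pathway starts when mannose-binding lectins or ficolins bind sugars, and the alternative pathway amplifies both on surfaces. All converge on C3, then on C5, and end with the assembly of C6 to C9 into a membrane pore. Hepatocytes make most of the plasma components, whereas the C1q chains and properdin come mainly from macrophages, and the receptors for the C3a and C5a fragments sit on myeloid cells.

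Values are CPM, reads per 1000000 reads on the listed genes, and the libraries held 19972699 to 22866431 such reads. Log2 fold changes are differences of log2(CPM + 1), which understates the change of low genes, and a gene was called higher or lower at a 2-fold difference. Intervals are 95% exact intervals that cover counting error only. Ogt itself, with no recovery, was at 55.3 CPM under the OGT-KO label and 64.7 under the control label, and at 7 days at 77.7 and 55.7. At the deposited scaling the later value thus goes against the label, and every direction here is between labels. A few abundant genes took more of the control libraries, and at equal totals the median of the 8963 genes that averaged at least 10 CPM was at log2 fold changes of 0.51 and 0.48 at the earlier and later time. With scaling by the median ratio of the genes, these medians were -0.19 and -0.18. Relative to the median gene at the deposited scaling, Ogt was at -0.73 and -0.005, so at the later time it was level with that gene. Of the 30 members, 29 passed the filter of 10 CPM, and C5ar1 did not. C3ar1 was above 10 CPM only in the OGT-KO-labelled libraries. The hepatocyte marker Alb had 41362 to 54434 CPM, and none of the 12 hepatocyte markers was at 0 in any library.

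Together the members took a similar share of each library, at 2.34% and 2.41% of reads in the OGT-KO-labelled libraries and control without recovery and 2.50% and 2.41% after 7 days. The composition of that share differed between the labels. Components made by hepatocytes were mostly lower in the OGT-KO-labelled libraries, and the components made by macrophages and the receptors were higher. The terminal pathway members were the furthest below control. Of the 29 members that passed the filter, 10 were at least 2-fold lower and 6 at least 2-fold higher with no recovery, where 5.69% of all compared genes were lower and 24.4% higher, 30.1% in all. After 7 days, 9 were lower and 7 higher, where 4.27% of all compared genes were lower and 22.9% higher, 27.1% in all. The share of members called higher was thus near that of all compared genes at both times. The higher members include C3ar1, which passed the filter only through the OGT-KO-labelled libraries, so the higher counts are a description. With median-ratio scaling the counts were 18 lower and 4 higher with no recovery, and 17 lower and 4 higher after 7 days. In bulk RNA, fewer cells of a type and less RNA per cell cannot be told apart.

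**Figure D1:**
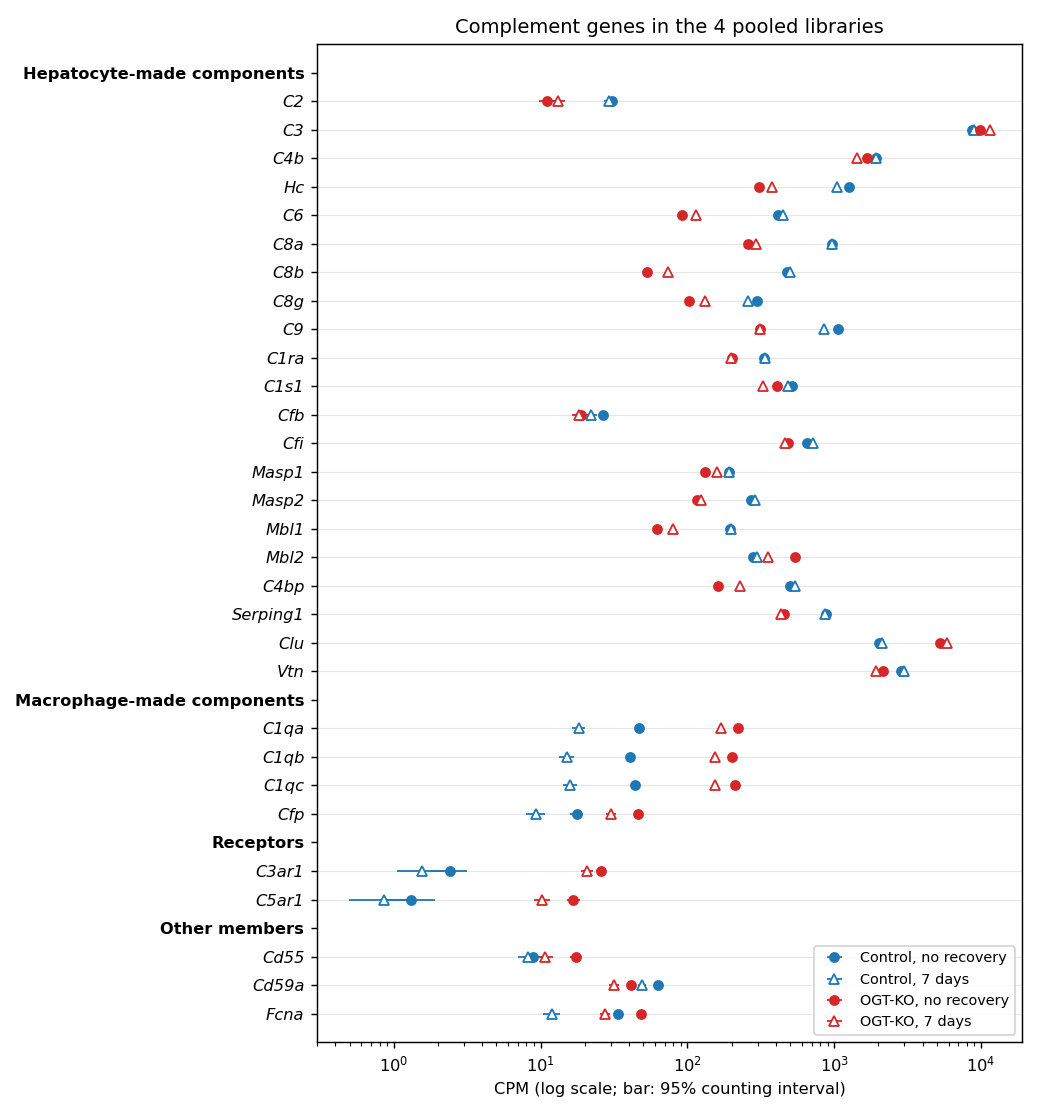
CPM of the 30 complement genes (log axis) in the 4 pooled libraries, grouped by the cells that mainly make them, with 95% exact counting intervals as bars. The macrophage-made components and the receptors were higher in both libraries labelled OGT-KO than in both labelled control, and most hepatocyte-made components were lower, with Clu, Mbl2 and C3 on the other side at the deposited scaling.

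The terminal pathway genes encode the pore-forming end of the cascade. All 5 among the members were lower in the OGT-KO-labelled libraries at both times. C7, also a part of the pore but not a member, went the other way at a low level and did not pass the filter. It had 2.14 CPM in the OGT-KO-labelled library and 0.470 in control without recovery, and 1.86 and 0.501 after 7 days. The control values of C7 rest on 10 reads each. C8b, the beta chain of C8, had 52.8 CPM in the OGT-KO-labelled library and 479 in control without recovery, and 73.6 and 502 CPM after 7 days. It was thus 9.06-fold lower with no recovery (interval 8.54 to 9.63) and 6.82-fold lower after 7 days (6.47 to 7.19), which made it the member furthest below control. C6, which joins C5b to start the pore, had 91.4 and 415 CPM with no recovery and 114 and 448 after 7 days, in the same order of labels. C8a, the alpha chain of C8, had 259 and 960.0 CPM with no recovery and 292 and 962 after 7 days. In each of these genes the 2 control libraries were close to each other and far above both others.

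C9, which polymerises to form the wall of the pore, had 312 and 1058 CPM with no recovery and 311 and 854 after 7 days. C8g, the lipocalin-like gamma chain of C8, had 102 and 297 CPM with no recovery and 131 and 259 after 7 days. At the later time C8g missed the 2-fold line, with a log2 fold change of -0.98. The 5 genes had median log2 fold changes of -1.88 and -1.71 at the earlier and later time, and their summed CPM was 3.93-fold and 3.28-fold lower. The chains of C8 did not move in step, since the ratio of C8a to C8b reads was 4.91 and 3.97 in the OGT-KO-labelled libraries and 2.00 and 1.92 in control.

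Hc, the gene of C5, is the substrate that splits into the C5a signal and the C5b anchor of the pore. It had 305 and 1255 CPM with no recovery, a 4.11-fold difference (4.01 to 4.23), and 376 and 1039 CPM after 7 days, a 2.76-fold difference (2.69 to 2.83). C3, the step before it, followed another course. It had 9779 CPM in the OGT-KO-labelled library and 8682 in control without recovery, and 11520.1 and 9013 CPM after 7 days. The log2 fold change of C3 was 0.17 and 0.35 at the deposited scaling and -0.55 and -0.33 with median-ratio scaling, so its direction depends on the scaling. Hc was called lower at both times and C3 was not called at either.

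The promoters of the 4 members with the largest falls with no recovery are shown because these genes were low together. Each is the 250 bases before the RefSeq start in GRCm38.p6, a build older than the GRCm39 of the submitters' processing notes. Capitals mark GTTAAT, on either strand, a half-site of the hepatocyte factor HNF1. The C8b stretch lies on the plus strand at chr4:104766067-104766316, C6 on the plus strand at chr15:4726960-4727209, Hc on the minus strand at chr2:35061413-35061662 and C8a on the minus strand at chr4:104876399-104876648.
C8b: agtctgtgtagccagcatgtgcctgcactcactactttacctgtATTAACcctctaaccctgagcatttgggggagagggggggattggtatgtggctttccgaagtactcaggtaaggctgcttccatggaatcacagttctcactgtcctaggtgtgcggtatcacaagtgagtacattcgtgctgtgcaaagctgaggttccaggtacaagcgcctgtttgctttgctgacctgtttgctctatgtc
C6: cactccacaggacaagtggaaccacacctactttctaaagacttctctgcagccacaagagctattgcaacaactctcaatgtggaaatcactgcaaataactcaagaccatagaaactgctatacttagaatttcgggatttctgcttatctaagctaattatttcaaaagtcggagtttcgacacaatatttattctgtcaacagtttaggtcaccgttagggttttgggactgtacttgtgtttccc
Hc: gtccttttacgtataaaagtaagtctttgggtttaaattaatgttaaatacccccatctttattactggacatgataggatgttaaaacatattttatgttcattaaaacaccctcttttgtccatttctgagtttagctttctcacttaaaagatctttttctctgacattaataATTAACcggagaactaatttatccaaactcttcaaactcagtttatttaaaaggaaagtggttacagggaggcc
C8a: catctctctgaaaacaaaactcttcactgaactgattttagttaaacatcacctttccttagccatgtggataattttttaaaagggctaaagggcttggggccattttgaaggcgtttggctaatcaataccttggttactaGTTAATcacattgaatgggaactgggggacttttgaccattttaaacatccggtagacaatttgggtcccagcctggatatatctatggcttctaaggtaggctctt
The half-site began 206 bases before the start of C8b, 74 before Hc and 107 before C8a, and was not in the C6 window. Over 32851 RefSeq windows of the same length, 6.43% held GTTAAT. Of the members, 23 of 31 had a window, and 6 of the 16 windows of 14 hepatocyte-made members held it (C1ra, C4bp, C8a, C8b, Hc and Vtn). TTGCNNAA, a C/EBP sequence, was in 9.56% of all windows and in 3 of these 16 (C1s1, C3 and C9). GTTAAT was also in 1 of 3 windows of macrophage-made members, that of Cfp. In the terminal pathway it was in 2 of 6 windows, with no match for C6, C8g or C9. Mbl1 and Masp2, also called lower, had no match, while C1ra and Vtn had one and were not called at the deposited scaling. The 4 printed genes were chosen by their fold changes, so their matches are not a test of the motif. No searched string contains another, and a match is a description, not a site. C8b and C8a are neighbours on chromosome 4 from 104766317 to 104804548 and from 104815679 to 104876398 in GENCODE M21 (GRCm38). The GENCODE starts of C6, at 4727175, and of Hc, at 35061438, lie inside their RefSeq windows, so the sources place these starts differently.

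**Figure D2:**
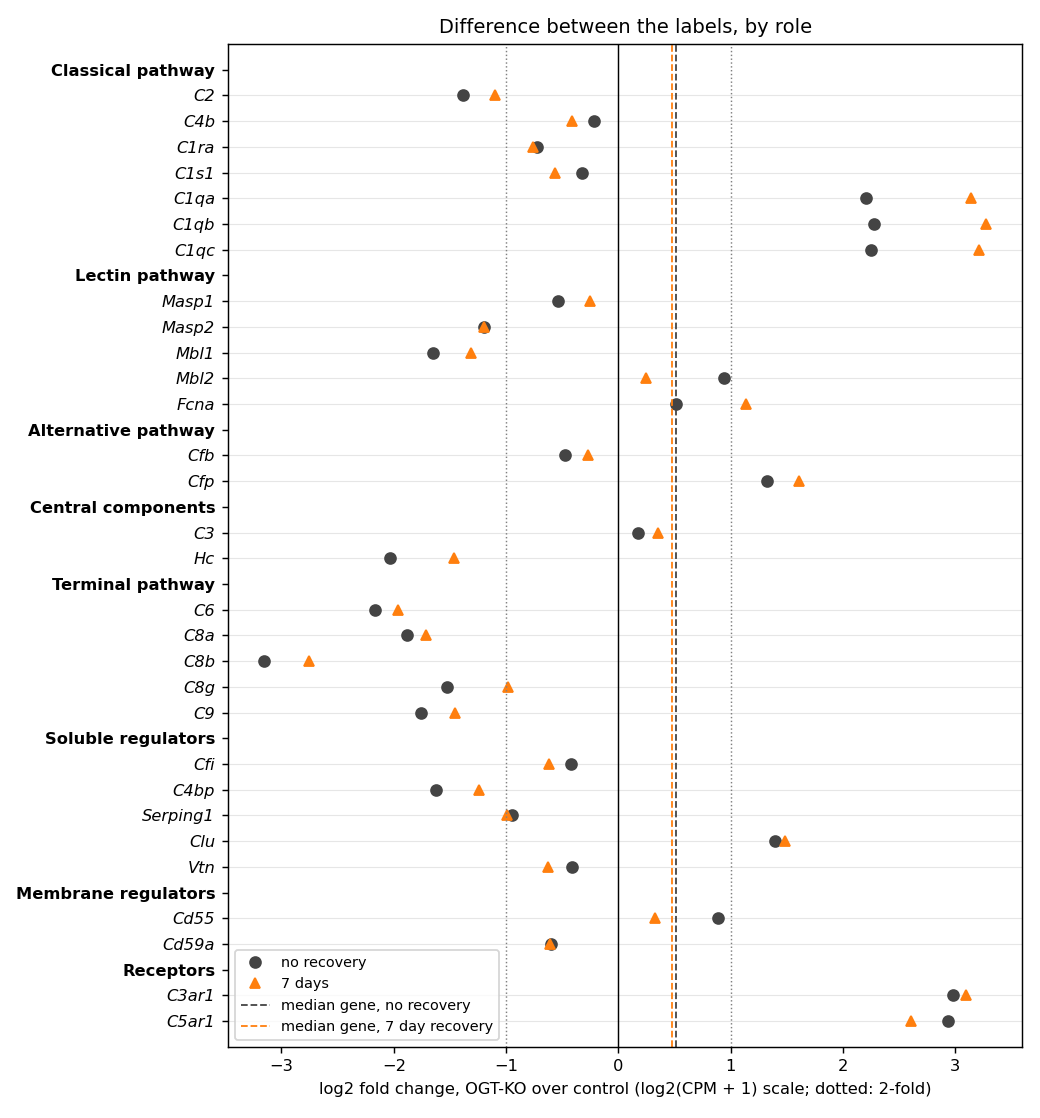
Log2 fold change of each member between the labels (log2(CPM + 1) scale) with no recovery (circles) and after 7 days (triangles), by role. Dotted lines mark 2-fold and dashed lines the median compared gene at 0.51 and 0.48, and all 5 terminal genes lie left of 0 while the C1q chains lie beyond 2.

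In the classical pathway, the parts assigned to macrophages and those assigned to hepatocytes differed in opposite directions between the labels. C1qa, C1qb and C1qc encode the 3 chains of C1q, the recognition unit, and all were higher in the OGT-KO-labelled libraries. C1qa had 221 and 47.1 CPM in the OGT-KO-labelled libraries and control without recovery, and 168 and 18.2 CPM after 7 days. C1qb had 201 and 40.7 CPM, then 155 and 15.1. C1qc had 212 and 43.9 CPM, then 155 and 15.9. The ratios with no recovery were 4.69 (4.38 to 5.03), 4.93 (4.59 to 5.31) and 4.83 (4.50 to 5.18) for C1qa, C1qb and C1qc, and they were 9.24 (8.30 to 10.3), 10.3 (9.11 to 11.6) and 9.75 (8.69 to 10.97) after 7 days. The 3 chains kept close to a constant ratio in all libraries, with 1.09 to 1.21 reads of C1qa and 1.001 to 1.08 of C1qc per read of C1qb.

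The C1q genes lie side by side on chromosome 4, minus strand, between 136880129 and 136898803 in GENCODE M21 (GRCm38), and the promoters of C1qb and C1qc are shown as those of the genes that were high together. Capitals here mark GAGGAA, on either strand, a core of sites for the macrophage factor PU.1. C1qb is at chr4:136886201-136886450 and C1qc at chr4:136892915-136893164.
C1qb: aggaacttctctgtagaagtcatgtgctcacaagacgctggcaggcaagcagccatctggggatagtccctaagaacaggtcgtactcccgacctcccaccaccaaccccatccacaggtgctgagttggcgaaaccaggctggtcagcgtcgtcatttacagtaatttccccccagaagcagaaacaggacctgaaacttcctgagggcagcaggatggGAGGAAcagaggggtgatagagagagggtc
C1qc: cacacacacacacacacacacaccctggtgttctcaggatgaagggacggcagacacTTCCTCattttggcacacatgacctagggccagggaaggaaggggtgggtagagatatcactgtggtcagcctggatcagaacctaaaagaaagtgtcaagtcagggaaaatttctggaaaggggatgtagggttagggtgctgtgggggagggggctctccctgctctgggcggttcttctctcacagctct
The letters began 30 bases before the RefSeq start of C1qb and 193 before that of C1qc. The GENCODE start of C1qc, at 136893065, lies inside its window, so part of that window is within the gene in that annotation. GAGGAA was in 23.3% of all RefSeq windows, in 2 of 3 windows of macrophage-made members and in 0 of the 16 windows of hepatocyte-made members. It was also in 0 of the 2 windows of the receptors C3ar1 and C5ar1, and C1qa had no window. Among the other members, GAGGAA had 3 matches in the window of Fcna and 1 in that of Cd59a, which was lower under the OGT-KO label. The window of Cd55 held none.

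C1ra and C1s1 encode the proteases that C1q activates and are made by hepatocytes. C1ra had 199.9 and 332 CPM in the OGT-KO-labelled libraries and control without recovery, and 198 and 336 after 7 days. C1s1 had 407 and 512 CPM, then 326 and 482. Both were lower at both times, at log2 fold changes between -0.76 and -0.33, and did not reach 2-fold. With median-ratio scaling both did, C1ra at -1.44 and -1.44 and C1s1 at -1.05 and -1.25. C4b, one of the substrates of C1s, had 1667 and 1934 CPM with no recovery and 1431 and 1909 after 7 days. C2, the other substrate, had 11.1 and 30.5 CPM, then 13.2 and 29.4, and was 2.76-fold and 2.23-fold lower. The values of C2 and of Cfb are uncertain, since 42.8% and 79.5% of their exon bases also belong to the overlapping gene Gm20547, and how reads on overlapping genes were counted is not stated.

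In the lectin pathway, Mbl1 and Mbl2, the mannose-binding lectins, parted. Mbl1 had 61.8 and 196 CPM in the OGT-KO-labelled libraries and control without recovery, and 79.1 and 198 after 7 days. Mbl2 had 537 and 280.1 CPM with no recovery, and 351 and 297 after 7 days. Mbl1 was thus 3.17-fold (2.99 to 3.37) and 2.50-fold (2.36 to 2.64) lower, while Mbl2 was 1.92-fold (1.86 to 1.98) and 1.18-fold (1.14 to 1.22) higher. There were 8.69 and 4.43 reads of Mbl2 per read of Mbl1 in the OGT-KO-labelled libraries and 1.43 and 1.501 in control, a difference that no scaling of the libraries changes. The direction of Mbl2 alone after 7 days does depend on it, with a log2 fold change of 0.24 at the deposited scaling and -0.44 with the median ratio.

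Masp2, the lectin-pathway protease that cleaves C4 and C2, had 117 and 269 CPM with no recovery and 124 and 286 after 7 days, and was called lower at both times. On the other strand Tardbp covers 54.9% of the Masp2 exon bases, and whether strand was used in counting is not stated. Masp1, the protease that activates Masp2, had 132 and 192 CPM, then 159 and 190.4. Fcna, the ficolin of mouse macrophages, had 48.5 and 33.8 CPM with no recovery and 27.4 and 11.9 after 7 days, so that it passed 2-fold only at the later time. With median-ratio scaling the log2 fold change of Fcna was -0.19 with no recovery and 0.49 after 7 days.

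In the alternative pathway, Cfp, the gene of the stabiliser properdin, had 45.7 and 17.7 CPM with no recovery and 30.3 and 9.26 after 7 days. It was 2.58-fold (2.29 to 2.91) and 3.27-fold (2.77 to 3.86) higher in the OGT-KO-labelled libraries. The log2 fold change of Cfp was 0.63 and 0.96 with median-ratio scaling, still higher but under 2-fold, and 0.86 and 1.15 with the upper quartile. Cfb, the protease zymogen of the pathway, had 18.9 and 26.7 CPM, then 18.1 and 22.1, with the limit on its reads given above for C2. Its log2 fold changes of -0.47 and -0.27 did not reach 2-fold.

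Among the soluble regulators, Clu was the only member made by hepatocytes that was called higher. Clu encodes clusterin, a chaperone that also binds the terminal complex. It had 5276 CPM in the OGT-KO-labelled library and 2013 in control without recovery, and 5869 and 2099.9 CPM after 7 days. The ratio was 2.62 (2.59 to 2.65) and 2.79 (2.76 to 2.83), and with median-ratio scaling the log2 fold change was 0.67 and 0.80, still higher but under 2-fold. Clu is also made by bile duct cells, and the summed level of 7 cholangiocyte markers was 1194.5 and 77.1 CPM with no recovery and 1524 and 97.0 after 7 days, while 10 stellate cell and fibroblast markers summed to 3537 and 247, then 4353 and 177, with none at 0 in any library. Their part in the Clu values was not tested. Clu also stood against Vtn, vitronectin, which likewise binds the terminal complex and had 2134 and 2851 CPM, then 1916 and 2969.

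C4bp, the binding protein that takes C4b out of action, had 162 and 503 CPM with no recovery and 228 and 540.4 after 7 days, and was called lower at both times. Serping1, the C1 inhibitor, had 453 and 874 CPM, then 435 and 868, at 1.93-fold and 1.998-fold lower just short of the call, which it passed with median-ratio scaling (-1.66 and -1.68). Cfi, the protease that inactivates C3b and C4b, had 482 and 647 CPM, then 464 and 713. On cell membranes, Cd59a, which blocks the pore, had 41.3 and 63.1 CPM, then 31.6 and 48.7. Cd55, which breaks up convertases, had 17.4 and 8.94 CPM, then 10.6 and 8.26, and its direction after 7 days turned with median-ratio scaling, from 0.33 to -0.29. Neither membrane regulator reached 2-fold at the deposited scaling, but Cd59a did at both times with median-ratio scaling (-1.30 and -1.28) and with the upper quartile (-1.07 and -1.08).

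The receptors were low genes with large ratios. C3ar1, the receptor of C3a, had 25.8 and 2.40 CPM in the OGT-KO-labelled libraries and control without recovery, and 20.7 and 1.55 CPM after 7 days. The ratio was 10.8 (8.08 to 14.6) and 13.4 (9.28 to 19.9). C5ar1, the receptor of C5a, had 16.7 and 1.32 CPM, then 10.2 and 0.851, a ratio of 12.6 (8.61 to 19.3) and 12.03 (7.35 to 21.002). The control values of C5ar1 rest on 28 and 17 reads, and those of C3ar1 on 51 and 31. C5ar1 averaged under 10 CPM and was not among the genes counted as higher.

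By source, 10 of the 21 hepatocyte-made components were at least 2-fold lower with no recovery and 9 after 7 days, and 9 were lower at both times. That last share stands beside 3.74% of all compared genes lower at both times. The median log2 fold change of the 21 was -0.95 and -0.98, or -1.45 and -1.46 relative to the median gene. A list of 38 other plasma proteins made by hepatocytes, such as albumin, apolipoproteins and clotting factors, had medians of -0.84 and -0.82 over the 37 that passed the filter. The complement list was thus 0.11 and 0.16 below other plasma proteins, where the terminal genes reached -1.88 and -1.71. Of the 37 other plasma proteins, 15 were at least 2-fold lower with no recovery, 18 after 7 days and 13 at both times. Hepatocyte markers had medians of -1.12 and -0.86 over 12 genes. C3 and Clu took 64.4% and 69.4% of all member reads in the OGT-KO-labelled libraries and 44.4% and 46.0% in control, and the other 19 hepatocyte-made components summed to 7505 and 13109 CPM with no recovery and 7041 and 12903 after 7 days.

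The 4 macrophage-made components were all called higher at both times, beside 19.2% of all compared genes, with medians of 2.23 and 3.17. With median-ratio scaling Cfp was not called at either time, and the 3 C1q chains were. Their median was 3.17 above that of the hepatocyte-made components with no recovery and 4.15 above it after 7 days. Under the 3 other scalings these differences were 3.17 to 3.18 and 4.16 to 4.17, and a pseudocount of 10 gave 2.96 and 3.43. Macrophage markers differed likewise. Of 15 such markers, 13 passed the filter, and 11 of these were at least 2-fold higher at both times. None of the 15 was at 0 in any library, and their summed level was 1495 and 1191 CPM in the OGT-KO-labelled libraries and 372 and 211 in control. Their median was 2.27 and 2.83 over the 13 that passed the filter, so the macrophage-made components were 0.05 below it with no recovery and 0.35 above it after 7 days. Kupffer cell markers had lower medians than the macrophage-made components, at 1.21 and 2.05 over the 5 that passed. Higher medians were not particular to macrophage markers. Monocyte markers, with 1 of 6 at 0 in control without recovery, had 2.32 and 2.82 over the 3 that passed. Stellate cell and fibroblast markers had 3.45 and 3.81 over 10 genes, and endothelial markers 0.96 and 0.76 over 6. For each read of Csf1r, the receptor of a macrophage growth factor, there were 3.25 and 2.92 reads of C1q in the OGT-KO-labelled libraries and 2.52 and 2.21 in control. For each read of the macrophage marker Cd68 there were 8.85 and 9.22, and 11.2 and 10.8. The part of macrophage number in the C1q, Cfp and receptor values was not tested. Neutrophil markers, from cells that also carry C5ar1, summed to 29.4 and 44.8 CPM in the OGT-KO-labelled libraries and 5.50 and 2.20 in control over 4 listed genes.

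**Figure D3:**
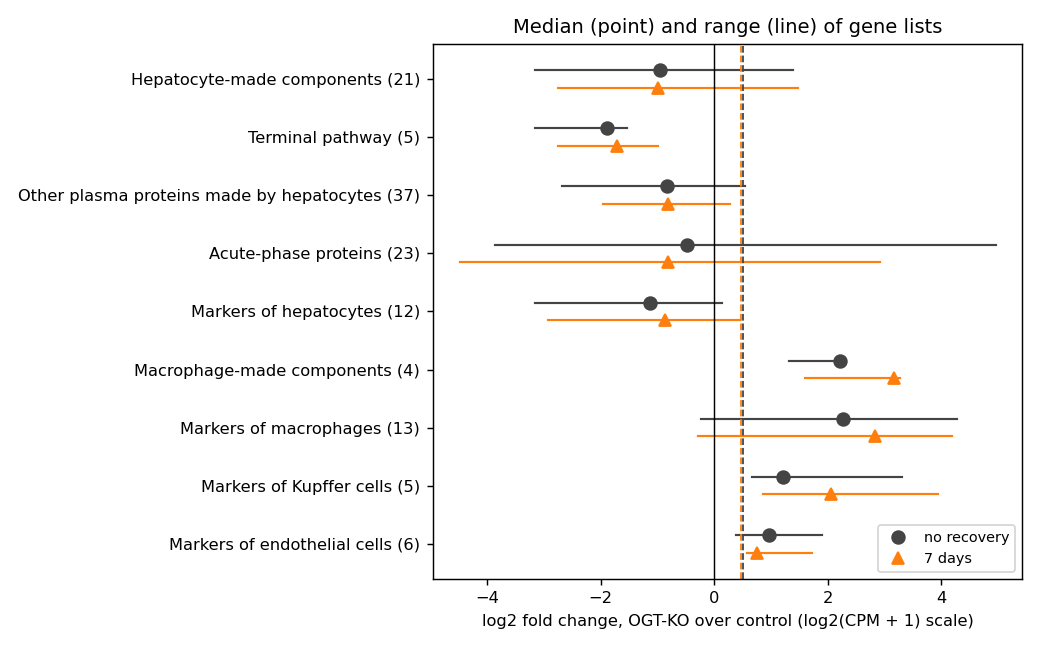
Median (point) and range (line) of the log2 fold change between the labels for gene lists, with the number of genes that passed the filter in brackets; dashed lines mark the median compared gene. The hepatocyte-made components sit near the other plasma proteins at both times, and the terminal pathway lies lower. The macrophage-made components sit near the macrophage markers and above the Kupffer cell markers.

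Other genes of the system were also divided. Of 30 further complement genes on a list, 23 were among the genes of the table and 16 passed the filter, of which 5 were at least 2-fold higher at both times and 4 at least 2-fold lower, beside 19.2% and 3.74% of all compared genes. Itgax, Itgb2 and Cd93 were above 10 CPM only in the OGT-KO-labelled libraries, so their count among the higher genes is a description. The 5 higher genes were Itgax and Itgb2, chains of complement receptor 4, with log2 fold changes of 3.73 and 3.87 and of 2.61 and 3.11, Vsig4, the Kupffer cell receptor of C3b, with 1.68 and 2.43, Cd93 with 2.39 and 2.63, and the collectin Colec11 with 1.22 and 1.28. Among the lower genes were Susd4, a membrane regulator, with -2.94 and -3.11, and Cpn2, a chain of the carboxypeptidase that trims C3a and C5a, with -1.25 and -1.22. Cr1l, the rodent membrane regulator Crry, had 31.9 and 32.6 CPM in the OGT-KO-labelled libraries and control without recovery and 34.8 and 34.9 after 7 days.

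Between the time points, the hepatocyte-made components moved little. In control, their log2 fold changes from no recovery to 7 days lay between -0.31 (C9) and 0.14 (Cfi), with a median of 0.01. Under the other label they lay between -0.61 (Mbl2) and 0.49 (C4bp), with a median of 0.15. C8b was at 0.47, and both C8b and C4bp were still called lower than control at 7 days. No member was 2-fold higher after 7 days under either label, where 0.245% of compared genes in control and 1.04% under the OGT-KO label were. Changes of 2-fold in either direction were rare over all compared genes, at 1.2% and 1.47%.

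The macrophage genes were lower after recovery. In control, C1qa, C1qb, C1qc and Fcna were each at least 2-fold lower after 7 days than with no recovery, beside 0.96% of all compared genes. C1qa was 2.59-fold lower (2.29 to 2.92), C1qb 2.70-fold (2.37 to 3.09), C1qc 2.77-fold (2.43 to 3.15) and Fcna 2.83-fold (2.44 to 3.30). Cfp was 1.91-fold lower (1.60 to 2.29). In the OGT-KO-labelled libraries no member was 2-fold lower, where 0.435% of compared genes were, and the same genes were 1.31-fold (1.26 to 1.37), 1.30-fold (1.24 to 1.36), 1.37-fold (1.31 to 1.43), 1.77-fold (1.60 to 1.96) and 1.51-fold (1.37 to 1.67) lower, in the same order. The difference between the labels in this fall was not tested. Macrophage markers had a median change of -1.20 in control and -0.39 in the OGT-KO-labelled libraries, and Kupffer cell markers, of which none was at 0, -1.42 and -0.58, so the C1q chains moved with them. The part of macrophage number in this comparison was not tested either.

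**Figure D4:**
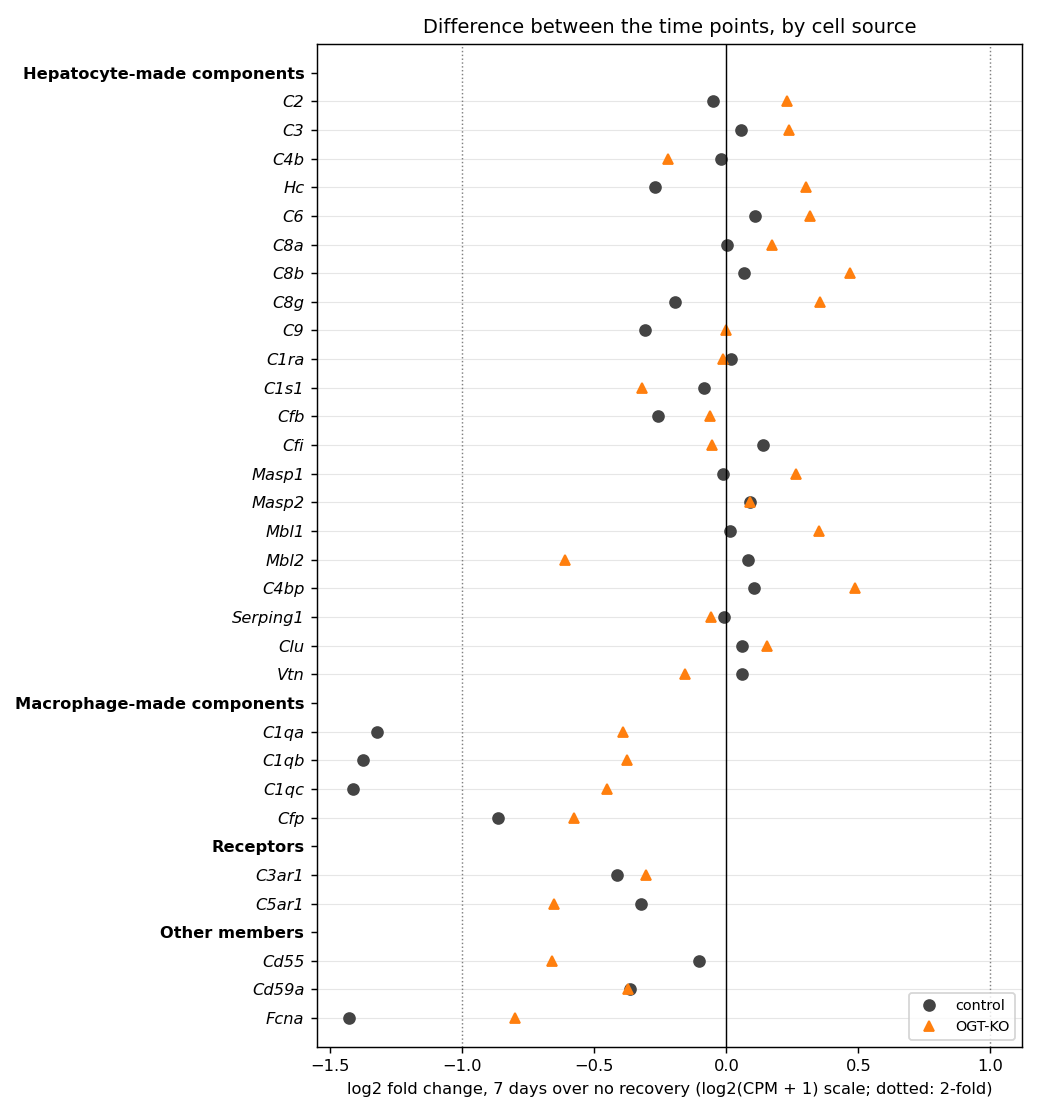
Log2 fold change of each member from no recovery to 7 days (log2(CPM + 1) scale) in control (circles) and in the OGT-KO-labelled libraries (triangles), by the cells that mainly make it; dotted lines mark 2-fold. In control the 3 C1q chains and Fcna lie beyond the 2-fold line at -1.32 to -1.43, and the hepatocyte-made components lie near 0.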

How the data were processed

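Liver mRNA-seq of 4 pooled libraries, 1 per condition, was used. The authors deposited CPM for 13903 genes, named for DESeq2 normalization, but each column sums to 1000000 and 100% of the values were within 0.01 of a whole number of reads, so whole reads were recovered. Per the labels, STAR, DESeq2 and GRCm39 were used. Their versions, the counter, its strand setting and the filter are not given in the sources used here.

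Genes that averaged 10 CPM or more were compared on log2(CPM + 1) and called at 2-fold. Counting intervals were exact (Clopper-Pearson for a level, conditional binomial for a ratio). A floor of 3 reads is 0.131 to 0.150 CPM. All members were named, other pathway genes if 2-fold at both times, except some that are not reported here. The source of each member was set from general knowledge. Members and lists were chosen with earlier results of these data known. Steps were tested on simulated reads, with Python 3.11, numpy 2.4.6, pandas 2.3.3 and scipy 1.17.1. Promoters were RefSeq sequences (GRCm38.p6), and gene positions came from GENCODE M21 (GRCm38), in which all 30 member identifiers were found. Adipocyte markers, listed for Cfd, were not analysed here. The alternatives were other pseudocounts, filters, scalings and a 4-fold threshold, and an exact binomial test on the reads.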

Additional observations from a re-analysis of the deposited data

Results flagged for a closer look

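Between the time points, 5 members went opposite ways under the 2 labels, each beyond its counting interval. Values are log2 fold changes from no recovery to 7 days, in control and then in the OGT-KO-labelled libraries. Hc was at -0.27 and 0.30, and C8g at -0.19 and 0.35. Mbl2 was at 0.082 and -0.61, Cfi at 0.14 and -0.054, and Vtn at 0.059 and -0.16. None reached 2-fold under either label, each rests on 1 library per condition, and the difference between the labels was not tested.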

How the results depend on the processing

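Counts of members kept within 1.5 times of the reported count in 63 of 72 recomputed cases, and no member called between the labels changed direction. The directions of members called between the time points were not recomputed. With median-ratio scaling, 18 members were lower with no recovery, and 17 lower and 4 higher after 7 days. With upper-quartile scaling, 16 were lower after 7 days. With a mean of at least 50 CPM, 4 were higher after 7 days, since fewer genes pass. At 4-fold, 3 were lower with no recovery, 1 lower and 4 higher after 7 days, and 0 lower after recovery in control.

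The medians, given for no recovery and then 7 days, followed the scaling. The hepatocyte-made median was -1.66 and -1.66 with median-ratio scaling, -1.43 and -1.46 with the upper quartile, and -1.17 and -1.25 with totals that leave out the 100 highest genes. With a pseudocount of 10 it was -0.77 after 7 days. The macrophage-made median was 1.51 and 2.51, 1.75 and 2.70, and 2.01 and 2.91 under the same scalings, and 2.03 and 2.67 with a pseudocount of 10, which also set the difference between the sources at 2.96 and 3.43.

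The exact binomial test with Benjamini-Hochberg adjustment compares libraries, not conditions. It called 12150 and 11969 of 13903 genes between the labels and removed no 2-fold call. No paired analysis was possible because each condition has 1 library and the labels carry no replicate numbers; for the same reason no library could be left out. Low receptors in control are limited by depth, with as few as 17 reads.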
